A study of Mus musculus with 24 samples.

Results

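The 10 genes described here act in the cell's response to amino acid shortage and to unfolded protein in the endoplasmic reticulum (ER). They are Atf4, Ddit3, Trib3, Asns, Chac1, Hspa5, Xbp1, Sesn2, Psat1 and Phgdh. They were taken by symbol and not by their values, although earlier results of these data were known when they were chosen. Each had 1 row in both deposited expression tables, so they were 10 of 17501 genes in mouse embryonic stem cells (mESC) and 10 of 16024 in neural progenitor cells (NPC). All 10 passed the filter on low values, which left 13916 genes to test in mESC and 13206 in NPC. The study sequenced total RNA from both cell types in 6 genotypes of Htt, the gene mutated in Huntington disease, with 2 libraries each and 24 in all. WT is the unmodified line and KO the Htt knockout, and the other groups are heterozygous knock-in lines whose Hdh (Htt) CAG repeat has 20, 50, 92 or 111 units, called Q20, Q50, Q92 and Q111. The stem cells grew with leukemia inhibitory factor on irradiated CF-1 mouse embryonic fibroblast feeders. The progenitors were derived from them and kept in medium with FGF and EGF on laminin. The origin of the WT and KO lines is not given in the sources used here, and the labels name no more than 1 line per repeat length, so that repeat length and line cannot be told apart. The series text calls the 2 libraries of a group biological samples and does not say whether they were separate cultures, so p-values measure the spread between these samples.

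Cells lower general protein synthesis under stress by phosphorylating the translation factor eIF2, through the kinases PERK at the ER, GCN2 under amino acid shortage, PKR and HRI. Translation of the transcription factor ATF4 then rises, and ATF4 switches on genes for amino acid transport and synthesis, for tRNA charging and for feedback control. At the ER, IRE1 also splices the messenger of XBP1 and ATF6 is cut free from the membrane, and both raise chaperones such as BiP, the product of Hspa5. ATF4 output is set in large part by translation and XBP1 output by splicing, so messenger levels of these factors show only part of their activity. Psat1 and Phgdh encode enzymes of serine synthesis, which feeds one-carbon metabolism in dividing cells such as stem cells and progenitors.

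Sequences that such factors are known to bind are shown for the 4 members that held a match to one. The letters TGATGNAA, the core of the C/EBP-ATF response element bound by ATF4 with a partner, were searched on both strands in RefSeq promoters (GRCm38.p6, 250 bases before to 50 after the start), together with the ER stress element (CCAAT and CCACG with 9 bases of any kind between them), its other form (ATTGG and CCACG with 1 base between them) and the unfolded protein response (UPR) element core TGACGTG. All 10 members had a promoter entry. Capitals mark the matches, and all sequences read 5′ to 3′ on the strand of the gene.
Trib3, chr2:152344029-152344058, minus strand, bases 3 to 32 counting the start as base 1: attagctcaggtTTACATCAgccgggcggg
Asns, chr6:7693210-7693459, minus strand, 250 bases before the start: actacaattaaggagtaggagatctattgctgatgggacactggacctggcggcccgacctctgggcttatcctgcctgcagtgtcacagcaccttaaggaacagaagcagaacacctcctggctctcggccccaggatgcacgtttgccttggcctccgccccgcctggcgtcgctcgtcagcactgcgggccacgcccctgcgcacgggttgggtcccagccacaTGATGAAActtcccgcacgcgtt
Chac1, chr2:119350992-119351241, plus strand, 250 bases before the start: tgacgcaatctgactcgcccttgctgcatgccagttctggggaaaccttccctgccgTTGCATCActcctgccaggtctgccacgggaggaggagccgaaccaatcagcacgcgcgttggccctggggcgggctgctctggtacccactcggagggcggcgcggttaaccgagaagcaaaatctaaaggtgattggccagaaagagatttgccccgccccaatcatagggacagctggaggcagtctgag
Hspa5, chr2:34771840-34772089, plus strand, 250 bases before the start: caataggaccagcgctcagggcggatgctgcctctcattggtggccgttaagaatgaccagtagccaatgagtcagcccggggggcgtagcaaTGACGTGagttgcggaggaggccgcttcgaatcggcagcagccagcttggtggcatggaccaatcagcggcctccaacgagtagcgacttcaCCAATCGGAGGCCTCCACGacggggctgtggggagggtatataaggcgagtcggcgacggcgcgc
The response element core lay in the promoters of Trib3 (reverse strand, base 15, counting the start as base 1), Asns (forward, base -23) and Chac1 (reverse, base -193). Of all 32851 promoters of this length 3.97% held it. Hspa5 held the ER stress element at base -65, present in 0.119% of promoters, and the UPR element core at base -157, present in 2.01%. The other form of the ER stress element, in 0.0365% of promoters, lay in none of these 4 windows. The other 6 members had no match to any of the 4 motifs in this window, which says only that these letters are not in it.

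Library depth lay between 58546211 and 81502284 counted reads in mESC, and between 48525333 and 118038952 in NPC. The lowest count behind any member's value was 45 reads (Chac1, mESC). Values are normalised CPM, read counts scaled to library size by the authors, and were compared as log2(CPM + 1), which understates the change of low genes. Htt itself was 124 and 113 CPM in mESC WT and 139 and 68.5 in the libraries labelled KO, so the first of these was not below WT (limma log2 difference -0.28, adjusted p = 1.0). In NPC Htt was 137 and 177 CPM in WT and 100.1 and 94.9 in the libraries labelled KO (-0.67, limma adjusted p = 0.0673). Summed over 9 stem cell markers, mESC libraries had 2060 to 3909 CPM. The 6 of these 10 markers in the NPC table summed to 106 and 108 CPM in the Q20 libraries and to 4.76 to 26.6 CPM in the other 10. The Q20 progenitor libraries held 90.1 and 87.4 CPM of Pou5f1, which was under 1 CPM in the other 10. The 10 progenitor markers summed to 3820 to 8789 CPM in NPC. In such bulk RNA fewer cells of a type and less RNA per cell cannot be told apart.

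Per kilobase of exon the order of the median levels was similar at its ends in both cell types. In mESC, Hspa5 stood first at 159 CPM per kb, followed by Asns at 112, Atf4 at 68.8, Psat1 at 56.8, Phgdh at 52.6, Sesn2 at 22.2 and Xbp1 at 16.2. Trib3 (5.99), Ddit3 (2.93) and Chac1 (1.56) were the lowest. In NPC, Hspa5 was again first at 184 CPM per kb, with Phgdh second at 172, then Atf4 at 108, Psat1 at 101, Asns at 48.3 and Sesn2 at 28.4. Xbp1 (5.91), Chac1 (4.99), Ddit3 (4.96) and Trib3 (1.64) closed that list. Many neighbours in these orders overlapped across libraries: NPC levels of Trib3 ran from 0.865 to 36.0 CPM and those of Chac1 from 0.982 to 46.3. The 2 tables were scaled separately, so levels were not tested between cell types.

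Positions are in GRCm38.p6 and gene models in GENCODE. Atf4 (ENSMUSG00000042406) lies on chr15:80255184-80257541, Hspa5 (ENSMUSG00000026864) on chr2:34771970-34777547, Xbp1 (ENSMUSG00000020484) on chr11:5520659-5525893, Trib3 (ENSMUSG00000032715) on chr2:152337422-152344032 and Chac1 (ENSMUSG00000027313) on chr2:119351229-119354381. Ddit3 overlaps the span of a second Ddit3 identifier on the same strand and of Mars on the opposite strand. Phgdh has 19 gene models of at least 90% identity over at least 200 bases elsewhere, and Psat1 has 1. None of these had a value under its symbol in either expression table. Whether the counting used strand or split such reads is not given in the sources used here, so the values of Ddit3, Phgdh and Psat1, and of Sesn2, which overlaps Gm12981, are less certain.

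The first comparisons asked whether the members differ between genotypes in stem cells. None of the 10 was called in mESC for KO against WT (0.0144% of all tested genes were called), Q20 against WT (0.323%: 0.259% higher, 0.0647% lower), Q50 against Q20 (0.00719%), Q92 against Q20 (0.00719%) or Q111 against Q20 (0%). The same held for a difference among any of the 6 genotypes (0.201%) and for a slope on CAG length over the knock-in lines (0%). The tests were limma with Benjamini-Hochberg adjustment over all tested genes, at 0.05. With the replicate number as a block, 0 members were called as well, while over all tested genes the calls went from 2 to 16 for KO against WT, from 45 to 1475 for Q20 against WT, from 1 to 137 for Q50, from 1 to 64 for Q92, from 0 to 8 for Q111 and from 28 to 1206 for any genotype, and stayed at 0 for the slope. At an unadjusted p under 0.05, 1 member stood out in 1 of these comparisons, Xbp1 in Q92 against Q20, and edgeR on the recovered reads called 0 members in every one of them. Xbp1, the factor made active by IRE1 splicing, read 55.5 and 69.0 CPM in Q20 and 31.3 and 31.8 in Q92, a log2 difference of -0.95 ± 0.41 (SE), limma adjusted p = 0.906. Chac1, which breaks down glutathione, had the widest uncertainty. Its Q111 libraries held 0.914 and 0.576 CPM against 2.31 and 6.10 in Q20, a difference of -1.48 ± 1.23 (limma adjusted p = 0.999). Both SEs come from the fit without the replicate block, so they include differences between replicate numbers. With that spread, these mESC tests left changes of this size undecided.

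**Figure D1:**
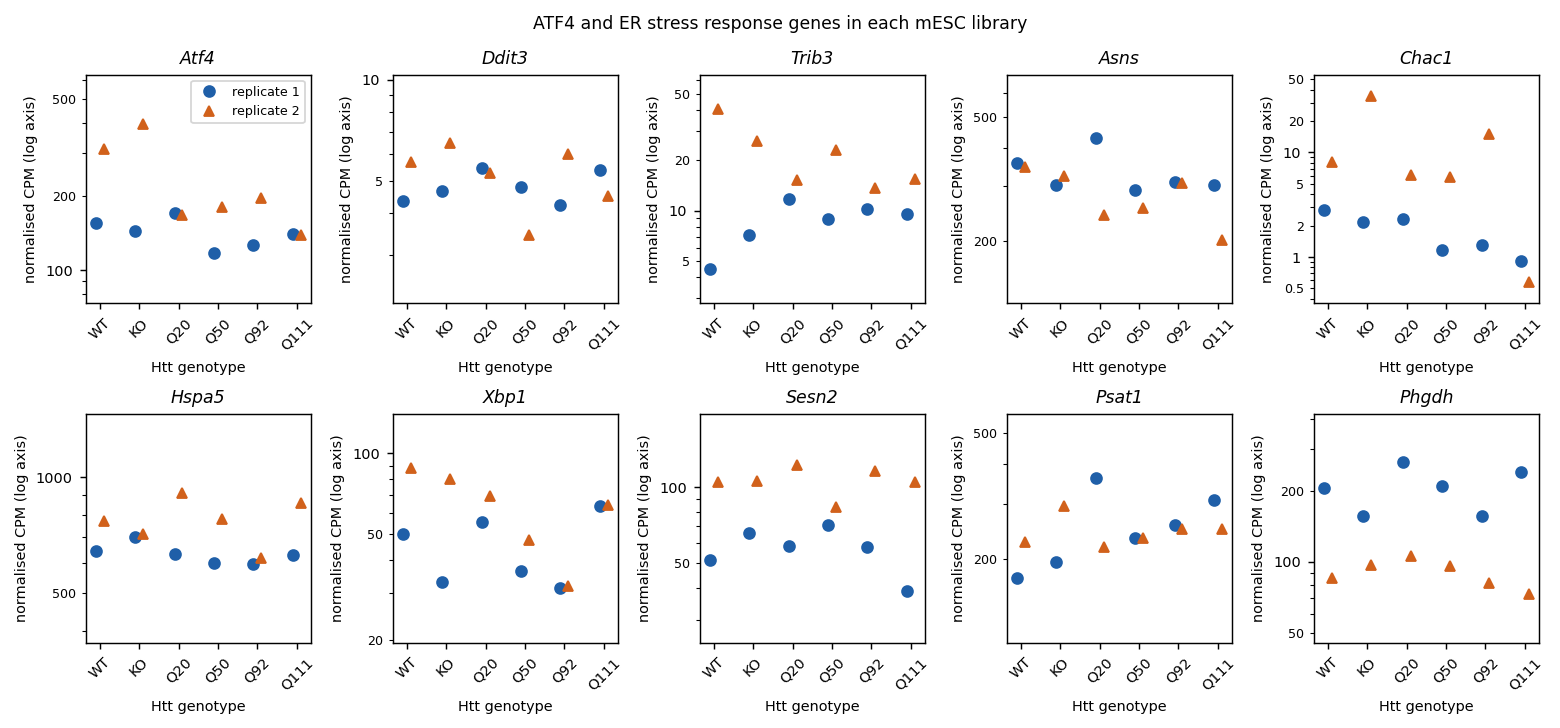
Normalised CPM of each member (log axis) in the 12 mESC libraries by Htt genotype, circles for replicate 1 and triangles for replicate 2. Within a genotype the symbols are often further apart than the genotypes are: Trib3 was higher and Phgdh lower in every replicate 2 library than in every replicate 1 library.

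The stem cell libraries also differed by their replicate number, which the titles give as 1 and 2. Within genotype, 6 of 10 members differed between numbers 2 and 1, where 43.3% of all tested genes did (20.5% higher and 22.8% lower). Atf4, Trib3, Chac1, Hspa5 and Sesn2 were higher in replicate 2, and Phgdh was lower. The median member difference was 0.37 on the log2 scale, beside -0.01 over all tested genes. What the libraries of a number share is not given in the sources used here, and the cause was not tested.

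Atf4, the transcription factor at the head of the response, read 156 and 312 CPM in WT replicates 1 and 2, 145 and 394 in the libraries labelled KO, 171 and 168 in Q20, 117 and 181 in Q50, 126 and 197 in Q92, and 140.5 and 139 in Q111. The second library was clearly higher in 4 of 6 genotypes, most of all in WT and KO, and level in Q20 and Q111. The difference was 0.61 ± 0.19 (limma adjusted p = 0.0358). Without the WT and KO libraries, an alternative added after seeing the data, it was 0.31 (adjusted p = 0.154), and 4 of 10 members were called beside 37.4% of all tested genes.

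Trib3, a pseudokinase that ATF4 and CHOP induce and that damps their action, read 4.47 and 40.6 CPM in WT, 7.11 and 26.0 in KO, 11.8 and 15.2 in Q20, 8.87 and 23.0 in Q50, 10.2 and 13.7 in Q92, and 9.48 and 15.4 in Q111. Every replicate 2 library lay above every replicate 1 library. The difference was 1.22 ± 0.34 (limma adjusted p = 0.0217), and 0.67 without the WT and KO libraries (adjusted p = 0.0399).

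Chac1 ranged most widely. It read 2.80 and 8.02 CPM in WT, 2.16 and 34.8 in KO, 2.31 and 6.10 in Q20, 1.16 and 5.85 in Q50, 1.32 and 15.1 in Q92, and 0.914 and 0.576 in Q111. The second library was higher in 5 of 6 genotypes, with Q111 the exception. The difference was 1.67 ± 0.45 (limma adjusted p = 0.0191), and 1.32 without the WT and KO libraries (adjusted p = 0.0778).

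Sesn2, a stress-induced inhibitor of growth signalling through mTORC1, and Phgdh, the first enzyme of serine synthesis, moved in opposite directions. Sesn2 ran from 38.9 to 70.9 CPM in the replicate 1 libraries (median 58.5) and from 83.4 to 122 in the replicate 2 libraries (median 105), 0.89 ± 0.14 higher (limma adjusted p = 0.00206). Phgdh ran from 156 to 264 CPM in replicate 1 (median 208) and from 72.9 to 106 in replicate 2 (median 90.7), 1.17 ± 0.13 lower on the log2 scale (limma adjusted p = 0.000434). For Sesn2, Phgdh and Trib3 the libraries of the 2 numbers did not overlap, 3 of 10 members beside 17.0% of all tested genes. Sesn2 and Phgdh kept their calls whichever of the 12 libraries was left out, with adjusted p up to 0.00869 and 0.00233.

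Hspa5, the main ER chaperone, ran from 596 to 698 CPM in replicate 1 and from 616 to 911 in replicate 2. It was higher in replicate 2 in 6 of 6 genotypes, by 0.28 ± 0.08 (limma adjusted p = 0.026), although KO and Q92 hardly differed. Xbp1 was also higher in 6 of 6 genotypes and missed the threshold (0.46 ± 0.17, adjusted p = 0.0603). Asns, which makes asparagine, Psat1, the second enzyme of serine synthesis, and Ddit3, which encodes CHOP, had differences of -0.26, -0.02 and 0.08 with no call. Of the 6 calls, 3 to 5 were left when 1 library was removed, the lowest count without either Q50 library. Leaving out a WT, KO, Q50 or Q92 library ended the call of Atf4, a KO or Q50 library that of Trib3, a Q92 library that of Chac1, and a WT, Q20, Q50 or Q111 library that of Hspa5.

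**Figure D2:**
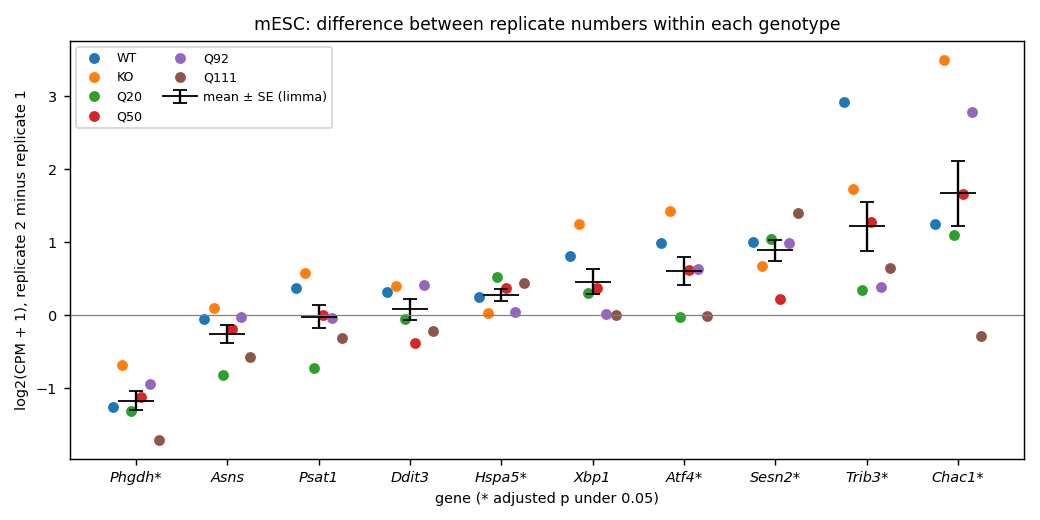
Difference of log2(CPM + 1) between replicates 2 and 1 within each mESC genotype (coloured points) for each member, with the mean over genotypes and its SE (black). All 6 points lie below 0 for Phgdh and above 0 for Sesn2 and Trib3, whose means are -1.17, 0.89 and 1.22.

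Cell type markers differed with the replicate number too, in a comparison where 43.3% of all tested genes were called. Of 9 stem cell markers 4 were higher and 1 lower in replicate 2, and Pou5f1 was higher there in all 6 genotypes. Of 7 feeder fibroblast markers tested 3 were higher and 2 lower, with sums of 15.2 to 60.9 CPM in replicate 1 and 12.4 to 71.0 in replicate 2, and of this list Col3a1 was at 0 in 1 library. Of 4 astrocyte markers tested 1 was lower, with sums over the 6 listed of 65.1 to 378 CPM and 16.6 to 108 CPM. The sum of 378 CPM came from Q111 replicate 1 alone, and Aqp4 was at 0 in 2 libraries. Of 9 neural progenitor markers tested 2 were higher, of 6 neuron markers 1 was higher and 2 lower, and of 7 early lineage markers 1 was higher and 1 lower. Markers also differed with genotype in mESC: feeder sums were 12.4 to 18.0 CPM in WT and KO and 47.7 to 71.0 CPM in the knock-in libraries. In mESC Q20 against WT, 2 of 7 feeder and 1 of 9 neural progenitor markers were called higher, where 0.259% of all tested genes were. Their part in the member differences was not tested.

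In NPC, no member was called for KO against WT (1.42% of all tested genes were), none at an unadjusted p under 0.05, and 0 by edgeR. The libraries of these groups were far apart. Trib3 read 5.83 and 1.13 CPM in WT and 27.7 and 0.865 in KO, and Chac1 read 18.6 and 0.982 in WT and 22.7 and 1.31 in KO. Asns read 286 and 91.1 CPM in WT and 525 and 85.4 in KO. For these 3 genes both replicate 1 libraries lay above both replicate 2 libraries, and the spread within a genotype exceeded the difference between genotypes. The KO libraries also differed for Atf4 (514 and 187 CPM), Ddit3 (26.1 and 4.52), Sesn2 (164 and 53.4), Phgdh (1029 and 440.0) and Psat1 (701 and 378). Hspa5 went the other way, with 654 and 978 CPM in WT and 516 and 767 in KO.

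This split of WT and KO libraries was not shared by the knock-in lines, where the 2 libraries of a genotype were closer for these 3 genes. Over all 6 genotypes no member was called for replicate 2 against 1 in NPC (0% of all tested genes were), with 0 at an unadjusted p under 0.05 and 0 by edgeR, and 9 of 10 differences were negative. The 6 genotypes shared 1 estimate of spread in the comparisons of single knock-in lines with Q20, and for all 10 members its SE was larger with the WT and KO libraries than without them. The same comparisons without these libraries are given beside the results, as an alternative added after seeing the data.

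**Figure D3:**
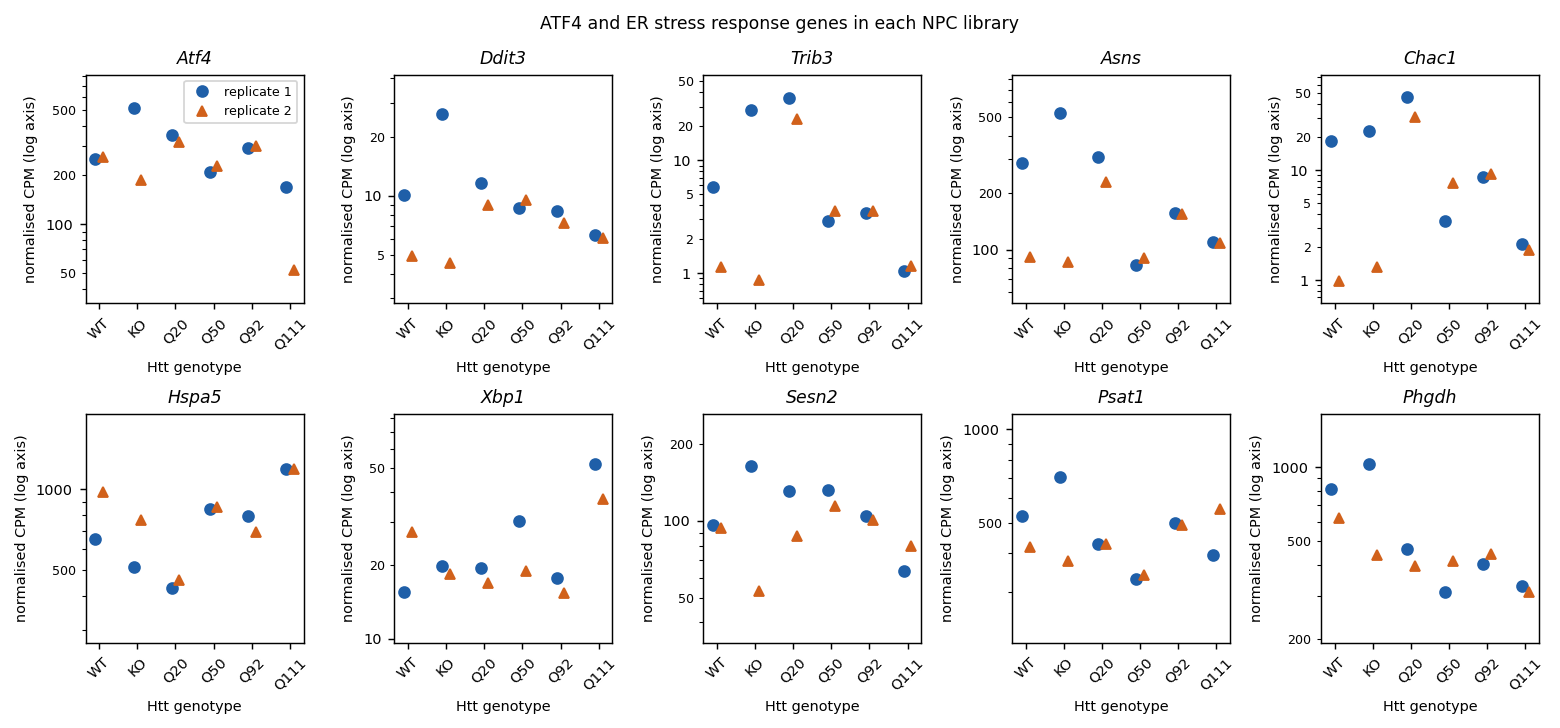
Normalised CPM of each member (log axis) in the 12 NPC libraries by Htt genotype, circles for replicate 1 and triangles for replicate 2. The WT and KO libraries are wide apart for Trib3, Chac1 and Asns, and the Q20 libraries are the highest of the knock-in libraries for these genes and the lowest for Hspa5. Among knock-in lines the Atf4 libraries of Q111 (169 and 52.4 CPM) and the Chac1 libraries of Q50 (3.44 and 7.61 CPM) also stand apart.

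Against WT, the Q20 progenitors differed in 1 of 10 members, where 14.5% of all tested genes were called (9.97% higher, 4.57% lower). Hspa5 read 429 and 461 CPM in Q20, below all 4 WT and KO libraries, a log2 difference of -0.84 ± 0.23 from WT (limma adjusted p = 0.0413). Without WT replicate 2 it was -0.56 (adjusted p = 0.13), and without either Q20 library the adjusted p was 0.194 or 0.136. Trib3 was 36.0 and 23.2 CPM in Q20, above both WT libraries, with a difference of 2.97 ± 1.07 that missed the threshold (adjusted p = 0.115). Beside this result, 2 of 4 stem cell markers tested, 6 of 8 feeder fibroblast markers, 2 of 6 astrocyte markers and 4 of 7 neuron markers were higher in Q20 than in WT, as were 3 of 4 early lineage markers. Lower in Q20 were 3 of 10 neural progenitor markers, with none of that list higher (median -0.88), 1 neuron marker and 1 early lineage marker. Their part in the result was not tested.

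The knock-in lines with longer repeats were each compared with Q20, so these 3 comparisons share the Q20 libraries and are not independent. Of the 10 members, 1 was called in Q50 (18.8% of all tested genes: 8.05% higher, 10.7% lower), 1 in Q92 (25.8%: 9.88% higher, 15.9% lower) and 4 in Q111 (28.3%: 12.2% higher, 16.1% lower). In Q111 the chaperone gene Hspa5 and the factor gene Xbp1 were higher, and Atf4 and its target Trib3 were lower. Without the WT and KO libraries the counts were 4 of 10 in Q50 (38.1% of all tested genes), 4 in Q92 (49.6%) and 7 in Q111 (51.2%). In Q50 and Q92 these 4 were Trib3, Asns and Chac1, lower, and Hspa5, higher. In Q111 they were Atf4, Ddit3, Trib3, Asns and Chac1, lower, and Hspa5 and Xbp1, higher. The share of members called in Q50 and Q92 was below or near that of all tested genes with and without the WT and KO libraries. With WT in place of Q20 as the reference, 0 members were called in each of the 3 lines.

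Hspa5 gave the steadiest difference. It read 429 and 461 CPM in Q20, 844 and 860.2 in Q50, 793 and 694 in Q92, and 1188 and 1194 in Q111. No library of a longer repeat overlapped Q20, and Q111 stood above all other NPC libraries. The mean in Q111, 1191 ± 4.11 CPM (SD, n = 2), was 2.68-fold that in Q20. The log2 differences from Q20 were 0.94 ± 0.23 in Q50 (limma adjusted p = 0.0224), 0.74 ± 0.23 in Q92 (0.0449, and 0.0508 with median-of-ratios scaling) and 1.42 ± 0.23 in Q111 (0.00287). The Q111 call held without any 1 of the 4 libraries (adjusted p up to 0.0269), whereas those in Q50 and Q92 did not (0.0858 to 0.205). Against WT the Q50 difference was 0.09, the Q92 difference -0.11 and the Q111 difference 0.57 (adjusted p = 0.116).

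Xbp1 read 19.4 and 17.0 CPM in Q20, 30.5 and 19.0 in Q50, 17.8 and 15.4 in Q92, and 52.1 and 37.3 in Q111. Only the Q111 libraries lay above all others, 1.23 ± 0.32 over Q20 (limma adjusted p = 0.0229). Against WT the same libraries were 1.05 higher (adjusted p = 0.0555), and leaving out any 1 of the 4 libraries gave adjusted p of 0.0518 to 0.137. The table holds gene totals, so the spliced form of Xbp1 was not measured.

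Atf4 read 353 and 319 CPM in Q20, 207 and 228 in Q50, 294 and 302 in Q92, and 169 and 52.4 in Q111. The Q111 libraries were the lowest of the 12 and far apart from each other. The difference of -1.82 ± 0.55 passed the threshold (limma adjusted p = 0.0414). It fell to -0.99 without the second Q111 library (adjusted p = 0.214), and edgeR gave -1.60 (adjusted p = 0.0663). Ddit3 read 11.6 and 8.996 CPM in Q20, 8.66 and 9.58 in Q50, 8.34 and 7.24 in Q92, and 6.30 and 6.07 in Q111. Its Q111 difference was -0.65 ± 0.63 (adjusted p = 0.463), and ± 0.16 without the WT and KO libraries (adjusted p = 0.018).

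Trib3 and Chac1 showed the widest changes. Trib3 read 36.0 and 23.2 CPM in Q20, 2.88 and 3.54 in Q50, 3.43 and 3.55 in Q92, and 1.04 and 1.15 in Q111. Its mean was 9.23-fold lower in Q50, 8.48-fold lower in Q92 and 27.0-fold lower in Q111 than in Q20. The log2 differences were -2.83 ± 1.07 (limma adjusted p = 0.11), -2.74 ± 1.07 (0.0951) and -3.84 ± 1.07 (0.0312). With the SE of 0.22 found without the WT and KO libraries, all 3 passed (0.000317, 0.00024 and 8.61e-05). Leaving out any 1 of the Q20 or Q111 libraries raised the Q111 adjusted p to between 0.0921 and 0.144. Against WT the Q111 difference was -0.86 (adjusted p = 0.6) and the Q92 difference 0.24, on the other side of 0.

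Chac1 read 46.3 and 30.2 CPM in Q20, 3.44 and 7.61 in Q50, 8.73 and 9.21 in Q92, and 2.11 and 1.86 in Q111. The Q20 libraries were the highest of all 12 and the Q111 libraries were close to the lowest, those of WT and KO replicate 2. The Q111 mean was 19.3-fold lower than that of Q20, a difference of -3.69 ± 1.20 that just missed the threshold (limma adjusted p = 0.051). Without the WT and KO libraries it was called (adjusted p = 0.000389).

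Asns read 307 and 228 CPM in Q20, 83.1 and 90.7 in Q50, 155 and 155 in Q92, and 109 and 108 in Q111. All 6 libraries of longer repeats were below Q20, with differences of -1.60, -0.77 and -1.27 (SE 0.77, none called), which were called without the WT and KO libraries (adjusted p = 0.000492, 0.00554 and 0.000687). The serine enzymes differed less from Q20 than Asns did. In Q50, Q92 and Q111 the differences were -0.25, -0.02 and -0.42 for Phgdh (SE 0.35). For Psat1 they were -0.35, 0.22 and 0.13 (SE 0.28). Phgdh ran from 309 to 463 CPM and Psat1 from 330 to 557 over the 8 knock-in libraries, with no call in either fit. Sesn2 ran from 63.9 to 132 CPM, lowest in Q111, with a difference of -0.57 ± 0.44 (adjusted p = 0.35).

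**Figure D4:**
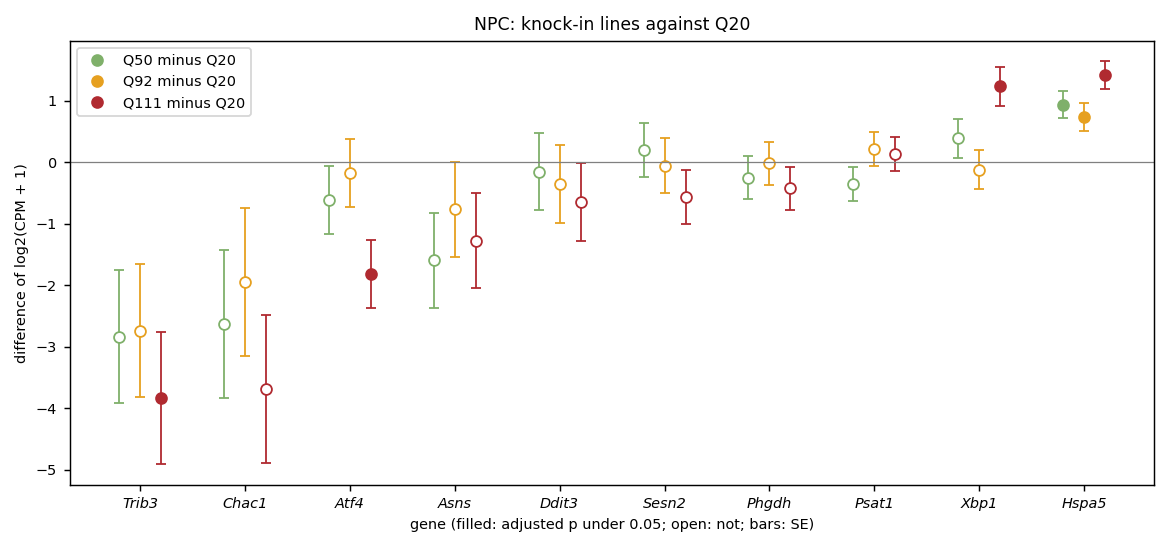
Difference of log2(CPM + 1) from Q20 for Q50, Q92 and Q111 NPC with its SE (limma, all 12 libraries); filled points passed the adjusted threshold. Trib3, Chac1 and Asns lie below 0 in all 3 lines and Hspa5 above 0, and the filled points of Xbp1 and Atf4 belong to Q111.

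A test for any difference among the 6 NPC genotypes called 1 of 10 members, Hspa5 (limma adjusted p = 0.0165), where 38.0% of all tested genes were called. Xbp1 followed at 0.0568 and was called by edgeR (0.0415). Without the WT and KO libraries 6 members were called beside 68.0% of all tested genes, and Psat1 (0.0584), Atf4 (0.0504), Sesn2 and Phgdh were not.

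Over the 8 knock-in libraries, the slope on CAG length was called for 3 of 10 members, where 22.0% of all tested genes were called (12.0% rising, 10.1% falling). Values are the fitted change from 20 to 111 repeats. Trib3 fell by 3.19 ± 0.66 on the log2 scale (limma adjusted p = 0.0125), Chac1 fell by 2.80 ± 0.76 (0.0329) and Hspa5 rose by 1.10 ± 0.27 (0.0246). Ddit3 (-0.60, adjusted p = 0.0797) and Atf4 (-1.27, adjusted p = 0.157) had falling slopes without a call. The order of the lines was not that of the repeats: for Trib3, Chac1, Hspa5, Asns and Atf4 the Q50 mean lay further from Q20 than the Q92 mean did. These slopes rest on 4 lines: with 1 mean value per line, without the Q20 line or without the Q111 line, 0 members were called. The share of all tested genes called in these smaller fits is not given here, so the 0 cannot be read as particular to the members. Without the Q20 line the Trib3 slope was -1.21 and the Chac1 slope -1.06. Without 1 of the Q20 libraries the count was 0 or 1, and without 1 of the Q111 libraries it was 1.

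The slope of Trib3 differed between cell types. It was -0.20 ± 0.39 in mESC (limma adjusted p = 1.0), where knock-in libraries held 8.87 to 23.0 CPM, and the NPC slope minus the mESC slope was -2.99 ± 0.79 (adjusted p = 0.0419). Of 12321 genes tested in both, 4.86% differed (2.70% with a higher slope in NPC, 2.16% with a lower one). The other 9 members did not pass, Hspa5 coming closest with 1.23 ± 0.36 (adjusted p = 0.0656). The Trib3 call also ended with 1 mean per line (adjusted p = 0.377), without the Q20 line, where the difference was -0.84, and without the Q111 line. It was kept in 5 of the 16 fits that left out 1 library (adjusted p from 0.0174 to 0.137).

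Cell type markers also differed between the NPC knock-in lines. The 6 astrocyte markers summed to 2094 and 1866 CPM in Q20 NPC, 1422 and 965 in Q50, 335 and 541 in Q92, and 252 and 238 in Q111. The 8 feeder fibroblast markers summed to 311 and 252 CPM in Q20, 895 and 917 in Q50, 6.60 and 7.69 in Q92, and 3.03 and 2.69 in Q111, with none at 0 in any library. Stmn2, a neuron marker, was at 0 in 1 library. In Q111 against Q20, 28.3% of all tested genes were called. There 8 of 8 fibroblast, 4 of 6 astrocyte and 4 of 7 neuron markers were lower, as were 3 of 4 early lineage markers. Of 4 stem cell markers 2 were lower and 1 higher. Of 10 neural progenitor markers 2 were higher and none lower, with a list median of 0.03. Pou5f1 was at 0 in 1 Q92 library. Their part in the member differences was not tested.

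The wider response was read from 90 further genes in 7 lists. In NPC Q111 against Q20, 21 of 89 tested were called, 15 higher and 6 lower (28.3% of all tested genes were called). Of 26 ER chaperone, folding and degradation genes 13 were higher and none lower, with a median of 0.60 beside 0.03 over all tested genes. The ER chaperone gene Calr read 518 and 517 CPM in Q20 and 1512 and 1565 in Q111 (1.57 ± 0.18, limma adjusted p = 0.000499). The chaperone gene Hsp90b1 read 501 and 512 CPM in Q20 and 1135 and 1242 in Q111 (1.23 ± 0.16, limma adjusted p = 0.00106). Both stood higher in both Q111 libraries than in any other NPC library, as Hspa5 did.

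The lists of ATF4 targets held the 6 lower calls, and none of their genes was called higher. From 0% to 22.2% of each list was called, beside 28.3% of all tested genes (16.1% lower), so the number of calls does not set these lists apart. Medians were -1.02 for 12 transcription and signalling genes (2 called: Ddit4, an inhibitor of mTORC1, and the factor Atf3), -0.59 for 9 amino acid transporters (2 called: Slc7a3 and Slc1a5) and -0.83 for 9 amino acid and one-carbon enzymes (2 called: Cbs and Cth, of cysteine synthesis). None of 12 tRNA synthetase genes was called (median -0.16). The arginine transporter gene Slc7a3 read 95.2 and 89.6 CPM in Q20 and 1.85 and 2.06 in Q111 (-4.98 ± 1.42, limma adjusted p = 0.0333). Its WT libraries held 35.4 and 2.39 CPM, the same split between replicates as Trib3, Chac1 and Asns had. Both Q111 libraries lay below both WT libraries for Slc7a3, Ddit4, Cbs and Cth, but not for Atf3 and Slc1a5. Atf3 read 10.7 and 7.46 CPM in Q20, 1.38 and 0.751 in Q111, and 1.40 and 0.552 in WT. Slc1a5 read 22.3 and 18.6 CPM in Q20, 7.59 and 6.76 in Q111, and 1.87 and 4.03 in WT. Calls with WT in place of Q20 as the reference are not given here for the lists. Without the WT and KO libraries, where 51.2% of all tested genes were called, 15 of the 26 chaperone-list genes were higher and 1, Herpud1, lower, and 7 of 9 amino acid and one-carbon enzymes were lower. In that fit the other ATF4 target lists went both ways, with 5 of 12 transcription and signalling genes lower and 1 higher, 4 of 9 transporters lower and 1 higher, and 6 of 12 tRNA synthetase genes lower and 3 higher.

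**Figure D5:**
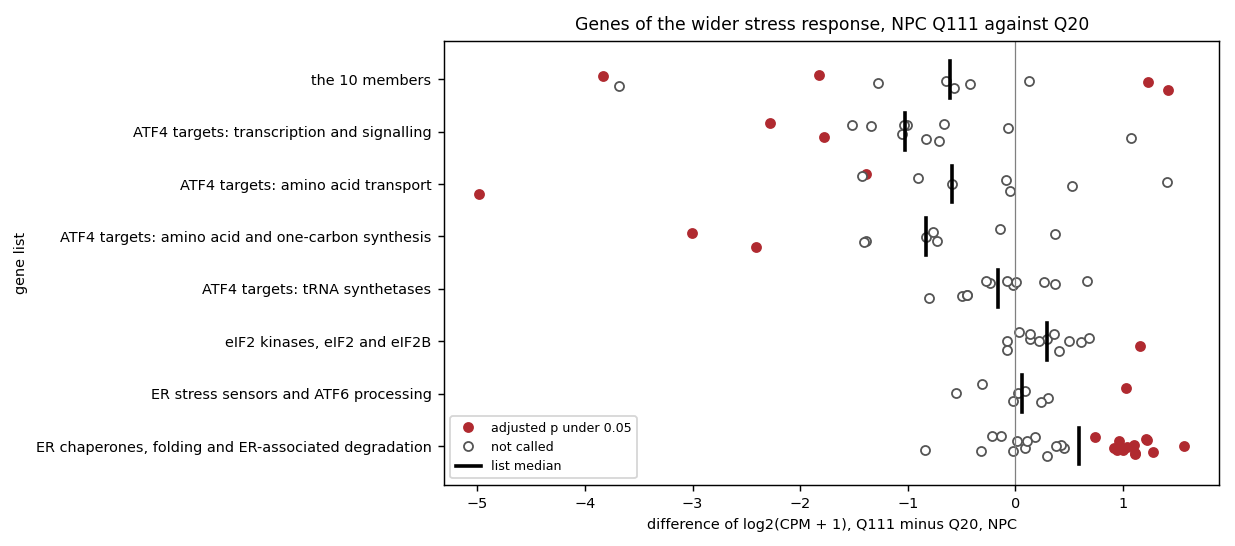
Difference of log2(CPM + 1) between Q111 and Q20 NPC for each gene (points, filled where the adjusted p was under 0.05) of the members and the 7 further lists, with list medians as black bars. Called genes of the ATF4 target lists lie left of 0 and those of the ER chaperone list right of 0.

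Along CAG length in NPC, 23 of the 89 genes were called, 14 rising and 9 falling (22.0% of all tested genes). The chaperone list had 9 of 26 rising and none falling, Pdia6 by 1.10 and Hsp90b1 by 1.06 over the range. Of 9 amino acid and one-carbon enzymes 4 fell, among them Aldh1l2 (-1.32) and Gpt2 (-0.84), and of 9 transporters 3 fell. Of 13 genes for eIF2, its kinases and its exchange factor eIF2B 4 rose, among them Eif2s1, the subunit that the stress kinases phosphorylate (1.12 ± 0.11, limma adjusted p = 0.000838). Eif2s1 read 133 and 140 CPM in Q20, 168 and 188 in Q50, 253 and 234 in Q92, and 307 and 304 in Q111. Its WT libraries held 95.1 and 225 CPM and its KO libraries 163 and 266. Like the member slopes, those of the list genes rest on 4 lines. The fit with 1 mean value per line was not read for them.

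Between mESC replicates, 41 of 88 tested genes of these lists were called, 31 higher and 10 lower in replicate 2 (43.3% of all tested genes). Of the 13 eIF2 and eIF2B genes 8 were higher, such as Eif2ak1, which encodes HRI (0.89), and Eif2b4 (0.84), and 1 lower, Eif2ak4, which encodes GCN2 (-0.40). Called genes went both ways among transcription and signalling targets, with Ppp1r15a, which reverses eIF2 phosphorylation, 0.71 higher and Ddit4 1.75 lower (log2 difference -1.75). They also went both ways among ER genes, with Dnajb11 at 0.74 and Ero1l at -0.84. No list gene was called in mESC Q111 against Q20 or along CAG length.

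The members varied together only in part. Each was correlated with the mean z score of the other 9 over the 12 NPC libraries. This gave r = 0.91 for Ddit3, 0.88 for Asns, 0.73 for Trib3, 0.67 for Sesn2 and 0.66 for Chac1. Phgdh (0.60), Psat1 (0.54) and Atf4 (0.52) were also positive, and Hspa5 (-0.74) and Xbp1 (-0.48) were negative. The KO replicate 1 library was the highest of these 12 for Atf4, Ddit3, Asns, Sesn2, Psat1 and Phgdh. In mESC Atf4 stood highest (0.85) and Phgdh lowest (-0.51), with Hspa5 at 0.12. Outside the lists, the genes most like the mean of the members in mESC were Eef1d (r = 0.91), Tfeb, Isy1, Cwf19l1 and Lap3, and most opposite were Pxmp4 (-0.90), A830018L16Rik and Micall1. In NPC they were Phf10 (0.92), Bag6, Hrk, Rufy2 and Ap3d1, and most opposite were Tpcn2 (-0.90), Tssc4 and Dusp22. These are descriptions over 12 libraries that share lines, replicate numbers and depth.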

How the data were processed

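Libraries of total RNA were read from both ends on a NextSeq 500, per the labels. Reads were handled with CASAVA 1.8 and STAR on GRCm38.p6, per the submitters' processing notes. The counting tool, its use of strand and the filter on genes are not given in the sources used here. The authors deposited a normalised CPM signal for each cell type, whose column totals (900342 to 1080734) showed further scaling. In every column 100% of the values were whole multiples of 1 step (within 0.01 read), which gave back the read counts. The main test was limma 3.58.1 (R 4.3.3, variance trend, two-sided, Benjamini-Hochberg) on log2(CPM + 1) for genes that reached a CPM of 1 in 2 or more libraries. The edgeR 4.0.16 quasi-likelihood test on the recovered counts was added after seeing the data and called 3415 genes for NPC Q111 against Q20. The titles and the growth protocol differ on the repeat length of Q92, and the title was used. Same-numbered mESC libraries deviated together (r of 0.25 to 0.547 over 15 pairs of genotypes), so the numbers pair them, and the replicate block changed no call of a member between mESC genotypes (0 with it and without it). Alternatives were scaling, pseudocount, filter, reference, left-out libraries and the replicate block. Named besides the members are, for each list and comparison with calls, at most the 2 genes with the smallest adjusted p per direction, and the genes most like the members. The members and lists were chosen with earlier results of these data known.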

Additional observations from a re-analysis of the deposited data

Results flagged for a closer look

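The slope of Trib3 on CAG length differed between the cell types by a test of the difference itself: the NPC slope minus the mESC slope was -2.99 on the log2 scale over the range from 20 to 111 repeats (limma adjusted p = 0.0419, 16 libraries). Trib3 was at 36.0 and 23.2 CPM in the Q20 progenitors, at 1.04 to 3.55 CPM in the other NPC knock-in libraries, and at 8.87 to 23.0 CPM in the mESC knock-in libraries. Each repeat length was 1 line, and the call ended with 1 mean value per line, without the Q20 line or without the Q111 line. It was kept in 5 of the 16 fits that left out 1 library.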

How the results depend on the processing

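Each group had 2 libraries and each repeat length 1 line, which limits the tests, and no member's value rested on fewer than 45 reads. In mESC, 0 members were called between genotypes under all alternatives run, and the replicate number called 6 (3 to 5 with 1 library left out). Calls over all tested NPC genes moved with the fit too. Without the WT and KO libraries they were 38.1% for Q50, 49.6% for Q92, 51.2% for Q111 and 68.0% for any genotype. With all libraries they were 18.8%, 25.8%, 28.3% and 38.0%. For the other alternatives listed next these shares are not given here, so a moved count need not be particular to the members. In NPC the counts of called members moved as follows. For Q20 against WT, 1 became 0 with the libraries of both groups alone. For Q50 against Q20, 1 became 0 with WT as the reference, 6 with both groups alone and 4 without the WT and KO libraries. For Q92, 1 became 0 with median-of-ratios scaling or WT as the reference, 5 and 4. For Q111, 4 became 0 with WT as the reference, 7 and 7. For any genotype, 1 became 2 with edgeR and 6 without the WT and KO libraries. For the slope, 3 became 0 with 1 mean per line, without the Q20 line or without the Q111 line, and the slope difference between cell types went from 1 to 0 under each of these. With 1 library left out, counts ran from 0 to 2 for Q20 against WT, were 0 for Q50 and Q92, and ran from 1 to 2 for Q111, from 0 to 5 for any genotype, from 0 to 3 for the slope and from 0 to 2 for the slope difference. With WT as the reference in Q92, Trib3 changed sign (0.24) and so did Hspa5 (-0.11). The causes were not tested.

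In NPC, same-numbered libraries deviated together in 3 of 15 pairs of genotypes (r over 0.1), with an r of 0.467 for KO with WT, and the numbers were not taken to pair the libraries over all genotypes. With the replicate block the slope difference called 2 members, Trib3 and Hspa5 (limma adjusted p = 0.044), and 1005 of all tested genes in place of 599, Chac1 passed in Q111 against Q20 (0.0386) and its slope did not (0.0558). The block left the other counts of members within 1.5 times. Of 133 member changes without a call, 35 changed sign under an alternative that left out no library and 71 when 1 library was left out.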
